A study of Mus musculus with 8 samples.

Results

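Sertoli cells are the somatic nurse cells of the seminiferous tubule. They enclose the germ cells, seal the tubule with tight junctions, respond to follicle-stimulating hormone and testosterone, and secrete hormones, carrier proteins and proteases into the tubule. Their identity is set in the fetal gonad by transcription factors such as SOX9, WT1 and GATA4, and their transcripts serve as a check on how much somatic material a preparation of germ cells still holds.

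The 10 genes described here were chosen by name as Sertoli cell markers, with earlier results of these data known. They come from the 21058 genes of the deposited tables, and all 10 were among the 17643 genes that could be tested. They were the transcription factors *Sox9*, *Wt1* and *Gata4*, the signalling genes *Amh*, *Dhh* and *Fshr*, the junction gene *Cldn11*, and *Clu*, *Ctsl* and *Aard*, whose products are secreted, lysosomal and of unclear function, respectively. The RNA came from frozen pellets of pachytene spermatocytes enriched by Sta-Put sedimentation, which sorts dissociated testis cells by how fast they sink at unit gravity, so it was not prepared to hold Sertoli cells. There were 4 *Arid1a* WT and 4 *Arid1a* cKO libraries. *Arid1a* encodes a DNA-binding subunit of the BAF chromatin remodeler. Males of the cKO group combined *Arid1a* fl/fl with a *Stra8-Cre* transgene (Tg/0), active in spermatogonia rather than in Sertoli cells, and the WT males carried floxed *Arid1a* (fl/fl or fl/+) without Cre. Both were adults on a CD1 background, testes of several males were pooled, and fractions were chosen by light microscopy. The study describes incomplete excision in this model, with ARID1A protein kept in part of the cKO spermatocytes. The labels call the libraries biological replicates. Nothing states which were prepared from separate males, so p-values measure the spread between these libraries.

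Libraries held 18308700 to 22044500 estimated counts in *Arid1a* WT and 15851000 to 21626800 in cKO. *Arid1a* itself was measured at 113 ± 13.8 CPM (counts relative to the TMM-scaled size of each library; SD, n = 4) in WT and 79.7 ± 2.89 CPM (SD, n = 4) in cKO, without overlap, and its log2 fold change (cKO over WT) was -0.51 ± 0.07 (SE; quasi-likelihood test in edgeR, adjusted p = 2.31e-05). Genotype differences were spread over the whole transcriptome, since 74% of the genes tested were called at an adjusted p of 0.05 or less. The pachytene markers *Piwil1*, *Ldhc*, *Hspa2*, *Sycp1*, *Sycp3*, *Mybl1*, *Ccna1* and *Tbpl1* summed to 7324 to 8392 TPM (a share of all transcripts that takes transcript length into account) in WT libraries and to 5847 to 6154 TPM in cKO libraries. The summed TPM of 10 spermatid genes was 5993 to 6814 in WT and 24666 to 26521 in cKO, and the part that this difference has in the results below was not tested.

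All 10 Sertoli marker genes were lower in *Arid1a* cKO than in *Arid1a* WT. Their log2 fold changes ran from -1.13 at *Aard* to -2.54 at *Amh*, with a median of -1.51, against a median of -0.02 over all genes tested. Of all genes tested, 37.5% were called lower and 36.5% higher. In all 10 markers every cKO library lay below every WT library, which held for 34.9% of all genes tested. Of all genes tested, 13.3% were both called lower and reduced by at least as much as *Aard*, the least reduced marker. This cutoff was taken from the markers, so all 10 meet it by construction. In RNA from a mixed preparation, fewer Sertoli cells and less of each RNA per Sertoli cell cannot be told apart. The members were picked by name with earlier results known, and they are not replicates of each other. These counts therefore describe the 10 genes and carry no test of the list.

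**Figure D1:**
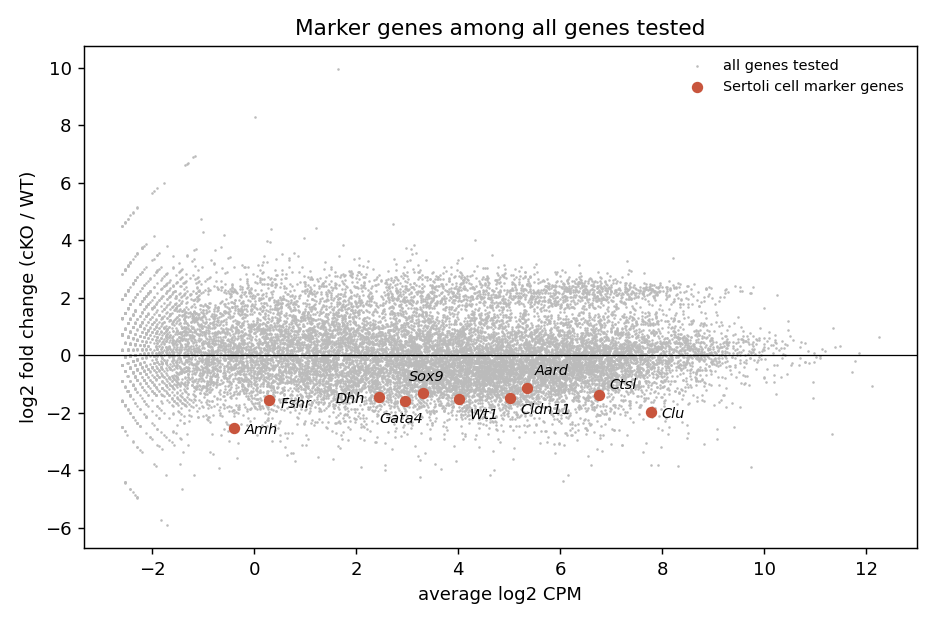
Each point is a gene tested, with its average log2 CPM on the horizontal axis and its log2 fold change (cKO over WT) on the vertical axis; the 10 Sertoli marker genes are in red. The markers span low to high abundance and all lie between -1.13 and -2.54, below the line at 0.

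Summed over the 10 genes, the level was 622, 629, 695 and 624 TPM in WT replicates 1 to 4, and 193, 188, 185 and 187 TPM in cKO replicates 1 to 4. The sums did not overlap, and the WT mean of 642 ± 34.8 TPM (SD, n = 4) was 3.41 times the cKO mean of 189 ± 3.60 TPM (SD, n = 4). WT replicate 3 stood above the other WT libraries, while the cKO libraries lay close together. The markers accounted for 0.0691% of all counts in WT and 0.0205% in cKO. Because the genes of the table hold 79.6% of all TPM in WT libraries and 88.4% in cKO libraries, a TPM ratio between genotypes depends on this difference as well, and on CPM scaled by TMM library sizes the ratio of the sums was 3.15.

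Ranked by TPM, the markers covered a wide range. The order in both genotypes was *Clu*, *Ctsl*, *Aard*, *Cldn11*, *Wt1*, *Gata4*, *Sox9*, *Dhh*, *Fshr* and *Amh*. In WT the means fell from 311 ± 21.1 TPM (SD, n = 4) for *Clu* to 1.01 ± 0.226 TPM (SD, n = 4) for *Amh*, and in cKO from 74.4 ± 4.08 to 0.154 ± 0.0488 TPM. Neighbours in this order were separated in every library of a genotype, except *Fshr* and *Amh* in both genotypes and *Gata4* and *Sox9* in cKO, whose ranges overlapped. *Clu* alone supplied 48.4% of the summed level in WT and 39.5% in cKO, so the sum is weighted toward this gene, and without it the ratio of WT to cKO was 2.90.

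**Figure D2:**
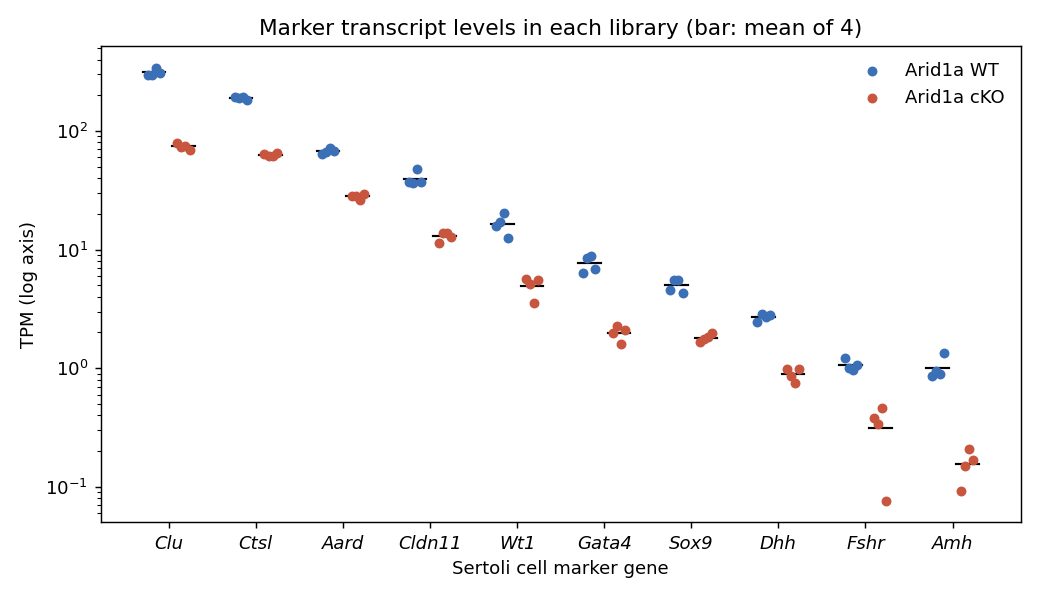
TPM of the 10 marker genes in each library, on a log axis, with the mean of 4 libraries as a bar, in WT (blue) and cKO (red). No cKO point reaches the lowest WT point of the same gene, and the order of the genes is the same in both genotypes.

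*Sox9*, which encodes the HMG-box factor that directs supporting cells of the fetal gonad to the Sertoli fate, lies at chr11:112782210-112787757 (GRCm38.p6, as are all coordinates here). It had 266, 327, 296 and 268 counts in WT replicates 1 to 4 and 96, 94, 116 and 93 in cKO replicates 1 to 4. The genotypes did not overlap, and no library stood apart within either. *Sox9* was 2.50-fold lower in cKO, with a log2 fold change of -1.32 ± 0.09 (SE) and an adjusted p of 8.95e-09 by edgeR, adjusted by Benjamini-Hochberg over all genes tested as for every adjusted p that follows unless stated.

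*Wt1*, at chr2:105126529-105173614, encodes a zinc finger factor needed to keep Sertoli cells in their differentiated state. It was counted 462, 522, 553 and 432 times in WT and 162, 149, 141 and 133 times in cKO. WT replicate 4 was the lowest of its group and still held more than 2 times the counts of any cKO library, and cKO replicate 3 was the lowest of its group on the CPM scale. *Wt1* differed by -1.54 ± 0.11 log2 units (SE, adjusted p = 1.12e-08). *Gata4*, at chr14:63198914-63271712, encodes a GATA factor of Sertoli and other gonadal somatic cells. Its counts were 212, 249, 241 and 245 in WT and 59, 80, 73 and 59 in cKO, again without overlap. For *Gata4* the difference was -1.59 ± 0.11 log2 units (SE, adjusted p = 6.78e-09), so the 3 transcription factors fell by 2.50- to 3.01-fold.

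Of the genes for 4 partners of these factors, 1 was called lower, 1 higher and 2 were not called. *Cited2*, a coactivator that cooperates with WT1, was lower by 1.94 ± 0.10 log2 units (SE), while *Zfpm2*, which encodes the FOG cofactor of GATA4, had a log2 fold change of -0.09 and did not pass (adjusted p = 0.184), nor did *Wtap*, for a protein that binds WT1, at -0.33 (adjusted p = 0.130). *Zfpm1* was called higher at 0.16 log2 units, a call made in 12 of 19 alternative settings. *Sox8* and *Nr5a1*, further transcription factor genes of Sertoli cells, had log2 fold changes of -1.67 ± 0.13 (SE) and -1.26 ± 0.11 (SE).

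*Amh* encodes anti-Müllerian hormone, which Sertoli cells of the male fetus release to make the Müllerian ducts regress and which is low in the adult. It lies at chr10:80805240-80807679. It was the scarcest marker, with 19, 21, 18 and 32 counts in WT and 2, 3, 5 and 3 counts in cKO. The highest cKO library stayed below the lowest WT library, and WT replicate 4 was above the other WT libraries. In the fit, *Amh* differed by -2.54 ± 0.34 log2 units (SE, adjusted p = 1.03e-05). From the summed counts of 90 and 13, the ratio of WT to cKO was 5.98, with an exact 95% interval of 3.33 to 11.7 that covers counting error only. The size of this largest fall is therefore known only loosely, and its interval overlaps that of *Clu* (3.84 to 4.06), the next in size.

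Of the 6 genes of the AMH receptor and SMAD pathway, 5 were called lower and 0 higher, with a median of -1.08. Among all genes tested, 37.5% were called lower. *Amhr2*, the type II receptor found on Sertoli and Leydig cells, fell from 76.2 ± 3.75 to 20.8 ± 1.24 TPM (SD, n = 4), and its log2 fold change was -1.82 ± 0.06 (SE, adjusted p = 6.50e-13). *Smad9* and *Smad1*, which encode transducers of this receptor class, had log2 fold changes of -2.20 and -1.51. *Bmpr1a*, a type I receptor, had -0.14 and did not pass (adjusted p = 0.08), and the lower call of *Smad5* (-0.35) took the opposite sign in 3 of 19 alternative settings.

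*Fshr* encodes the receptor for follicle-stimulating hormone and lies at chr17:88984952-89200675. Counts were 39, 33, 28 and 37 in WT and 12, 10, 16 and 2 in cKO. No cKO library reached a WT library, but cKO replicate 4 was well below the other cKO libraries, and the coefficient of variation in cKO was 52.7%. Its difference was -1.57 ± 0.31 log2 units (SE, adjusted p = 0.000403), and the summed counts of 137 and 40 gave a ratio of 2.96 (exact 95% interval 2.07 to 4.32, counting error only). RefSeq promoter sequences were matched for 4 of the 10 markers, namely *Cldn11*, *Fshr*, *Dhh* and *Ctsl*. The *Fshr* and *Cldn11* windows are shown because both genes fell by similar amounts from sequences of very different base composition. The 250 bases before the annotated start of *Fshr* (chr17:89200676-89200925, minus strand) have a GC content of 36.8%, and capitals mark an E-box (CACGTG) that begins 61 bases before the start.
Fshr: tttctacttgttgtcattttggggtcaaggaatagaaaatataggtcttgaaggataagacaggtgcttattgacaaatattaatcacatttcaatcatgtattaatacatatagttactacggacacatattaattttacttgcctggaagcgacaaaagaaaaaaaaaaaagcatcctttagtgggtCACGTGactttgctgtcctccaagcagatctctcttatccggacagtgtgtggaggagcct
The E-box word was searched after the sequence had been read, and 6.02% of the 32851 promoters in the table hold it on either strand. The window was also searched on both strands for a SOX word (AACAAT, held by 9.42% of all promoters), a GATA word (AGATAA, held by 9.99%), an NR5A1 word (AAGGTCA, held by 4.08%), a TATA word (TATAAA, held by 12.4%) and a CRE word (TGACGTCA, held by 1.55%). None was found, which says only that these letters are not in this window.

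The genes of FSH signal transduction did not share the direction of the receptor. *Creb1* and *Gnas* were called lower (log2 fold changes of -0.80 and -0.19), *Adcy3* and *Prkaca* higher (0.94 and 0.15). These genes act in many cell types, and the calls of *Creb1*, *Gnas* and *Prkaca* were each lost in at least 1 alternative setting. *Inha* and *Inhbb* encode subunits of inhibin, the Sertoli hormone that feeds back on follicle-stimulating hormone. *Inha* fell from 38.0 ± 2.42 to 14.5 ± 1.05 TPM (SD, n = 4) with a log2 fold change of -1.25 ± 0.06 (SE), and *Inhbb* from 6.28 ± 0.961 to 1.42 ± 0.0942 TPM (SD, n = 4) with a log2 fold change of -2.00 ± 0.10 (SE).

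*Dhh* encodes Desert hedgehog, the ligand by which Sertoli cells signal to Leydig and peritubular myoid cells, and lies at chr15:98881615-98898562. It had 147, 174, 146 and 180 counts in WT and 58, 47, 48 and 48 counts in cKO. The groups were well apart and no library stood out. *Dhh* was 2.76-fold lower in cKO (log2 fold change -1.47 ± 0.12, SE, adjusted p = 4.01e-08). Of the 31-base words in its transcripts, 23.8% also occur in other genes, *Gm49442* the most. Its exons overlap *Gm49442* on the opposite strand and *Rhebl1* on the same strand. Whether counting used strand is not stated in the sources used here, and strand would not separate *Rhebl1*, so the count of *Dhh* could have been shared.

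As a group, the other genes of the hedgehog pathway did not share the direction of the ligand. Of 10 such genes, 1 was called lower and 7 higher (median log2 fold change 0.65), against 36.5% of all genes called higher. The higher calls numbered 4 to 7 over the alternative settings. *Ptch1*, the hedgehog receptor and itself a target of the pathway, was the one lower gene at -0.95 ± 0.15 (SE, adjusted p = 5.90e-05), at 43 to 151 counts per library. *Sufu* was higher at 1.21 ± 0.05 (SE) and *Gli2* at 1.61 ± 0.23 (SE). *Sufu*, a negative regulator of the pathway, was measured at 38.5 ± 3.26 TPM in WT and 105 ± 3.75 TPM in cKO (SD, n = 4), and without it the summed TPM of the list in cKO was 1.11 times that in WT. The call of *Ptch1* was made in 16 of 19 alternative settings.

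*Cldn11*, at chr3:31149920-31164326, encodes the claudin that forms the tight junction strands of the blood-testis barrier. Counts were 921, 929, 1087 and 997 in WT and 282, 313, 372 and 261 in cKO. Every WT library held more than 2 times the counts of every cKO library, with replicate 3 the highest in both genotypes by count. *Cldn11* differed by -1.47 ± 0.08 log2 units (SE, adjusted p = 6.48e-10). The 250 bases before its annotated start (chr3:31149670-31149919, plus strand) have a GC content of 63.6%. Capitals mark 2 CCAAT boxes on the opposite strand, read here as ATTGG, at 66 and 35 bases before the start.
Cldn11: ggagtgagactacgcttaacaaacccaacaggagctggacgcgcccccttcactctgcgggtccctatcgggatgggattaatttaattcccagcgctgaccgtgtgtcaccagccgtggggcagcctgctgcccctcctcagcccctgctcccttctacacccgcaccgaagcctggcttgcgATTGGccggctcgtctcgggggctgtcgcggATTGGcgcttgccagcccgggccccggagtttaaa
The CCAAT word was also searched after reading the sequence, and 33.8% of all promoters hold it. None of the 5 words named above for *Fshr* occurs in this window. Of the 4 matched windows, that of *Ctsl* held the SOX word, and those of *Ctsl* and *Fshr* held the E-box word.

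The other tight junction genes did not move with *Cldn11* as a group. Of 13 listed, 12 were tested, 6 were called lower and 4 higher, against 37.5% lower and 36.5% higher among all genes tested. *F11r* and *Ocln*, which encode the junction proteins JAM-A and occludin, had log2 fold changes of -1.23 ± 0.09 (SE) and -1.01 ± 0.20 (SE).

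*Clu* encodes clusterin, an extracellular chaperone that is among the main secreted proteins of Sertoli cells, although other cells also make it. It lies at chr14:65968483-65981548. It was the most abundant marker, with 7002, 7168, 7395 and 7829 counts in WT and 1732, 1521, 1842 and 1333 counts in cKO. All WT libraries were far above all cKO libraries, and the lowest WT level was 3.52 times the highest cKO level on the CPM scale. In cKO *Clu* was 3.96-fold lower (log2 fold change -1.99 ± 0.05, SE, adjusted p = 1.81e-13). Of 4 clusterin receptor genes, 3 were called higher and 0 lower, against 36.5% of all genes tested called higher. *Lrp2* rose by 1.71 ± 0.15 log2 units (SE) and *Lrp8* 0.55 ± 0.07 (SE), whereas the call of *Vldlr* (0.50) was made in 7 of 19 alternative settings and its sign turned in 2.

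*Ctsl* encodes cathepsin L, a cysteine protease that Sertoli cells make in a stage-dependent way and that most other cells hold in lysosomes. It lies at chr13:64361890-64370772. It had 3221, 3217, 3101 and 3502 counts in WT and 1192, 1010, 1228 and 928 in cKO. The genotypes were clearly apart, with a coefficient of variation of 3.71% in WT and 4.75% in cKO. *Ctsl* differed by -1.37 ± 0.05 log2 units (SE, adjusted p = 5.52e-12). Other genes hold 28.2% of the 31-base words of *Ctsl*, *Gm47123* the most, and its exons overlap *Gm47123* on the opposite strand and *Gm49230* on the same strand, so its count could also have been shared, to an extent that was not measured. Among 12 other cathepsin and cystatin genes, 3 were called lower and 5 higher (median 0.05). These numbers ran from 1 to 4 and from 3 to 5 over the alternative settings. Among all genes tested, 37.5% were called lower and 36.5% higher. *Cst3*, which encodes the cathepsin inhibitor cystatin C, was at -0.64 ± 0.06 (SE, log2 fold change), and *Ctsc* and *Ctsz*, which encode other lysosomal cathepsins, had 1.15 ± 0.27 (SE) and 0.60 ± 0.18 (SE).

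*Aard*, at chr15:52040107-52045722, encodes an alanine- and arginine-rich protein known mainly from its testis expression. Counts were 1111, 1170, 1136 and 1272 in WT and 489, 450, 493 and 413 in cKO. It was the least reduced marker, at -1.13 ± 0.06 log2 units (SE, adjusted p = 1.35e-10). Its lowest WT level was still 2.02 times its highest cKO level on the CPM scale.

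The size of the fall varied among the markers, from -1.13 ± 0.06 log2 units (SE) at *Aard* to -1.99 ± 0.05 (SE) at *Clu* among those with ample counts. For the 8 markers with at least 40 counts in every library, the log2 ratio of counts was taken between each of 28 pairs within each library, which removes library size, and compared between genotypes by a two-sided exact permutation test over 70 assignments. In 11 pairs the genotypes did not overlap, and these had the smallest p that 4 against 4 libraries allow, 0.0286. After adjustment over the 28 pairs each stood at 0.0727. At least 16 pairs would have to reach the smallest p together for any to pass 0.05, so the missed threshold does not show that the markers fell alike. The largest difference was between *Aard* and *Clu*, whose log2 ratio was -2.65 ± 0.04 in WT and -1.79 ± 0.09 in cKO (SD, n = 4), a difference of 0.86. Relative to *Clu*, *Sox9* differed by 0.67, *Dhh* by 0.52 and *Cldn11* by 0.51, and the ratio of *Clu* to *Ctsl* was lower by 0.61. Among pairs without *Clu*, the largest difference was that of *Gata4* to *Aard*, at -0.47, and the ratio of *Cldn11* to *Dhh* was nearly equal, at 2.61 in WT and 2.60 in cKO.

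**Figure D3:**
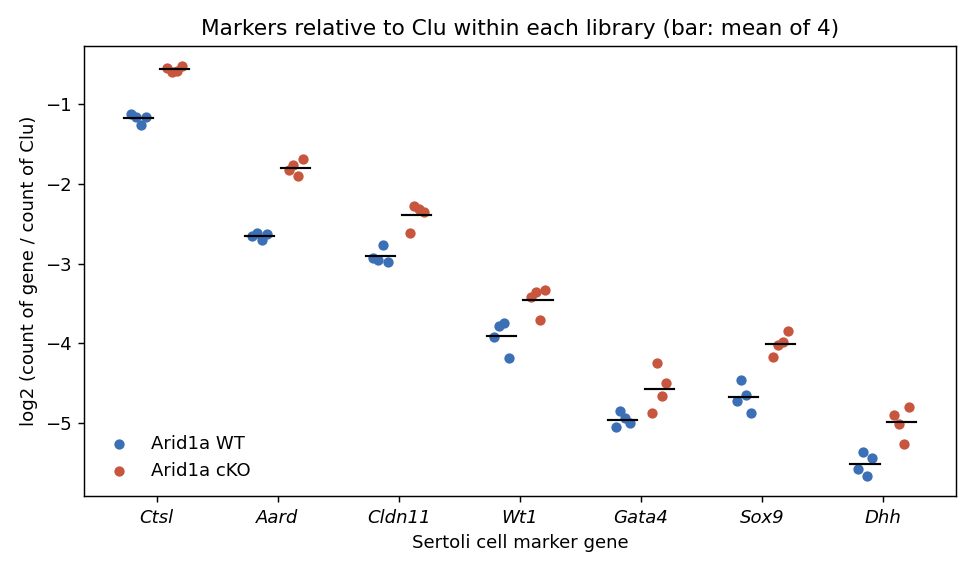
Log2 ratio of the count of 7 markers to the count of *Clu* in each library, with the mean of 4 libraries as a bar, in WT (blue) and cKO (red). The cKO mean is higher for every gene, without overlap of the libraries except for *Gata4*, and the largest step is that of *Aard*, from -2.65 to -1.79.

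Libraries of one genotype did not rank alike across markers. WT replicate 3 was the highest WT library for 4 of the 10 markers and replicate 4 for 3, and cKO replicate 1 was both the lowest for 4 and the highest for 4. The lowest WT level exceeded the highest cKO level by 1.83 times at *Fshr* to 3.77 times at *Amh* on the CPM scale.

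Other Sertoli genes were examined by a list of 24 autosomal and 5 X-linked genes, also chosen with earlier results known. Of the autosomal genes, 20 were called lower, 3 higher and 1 was not called, with a median log2 fold change of -1.21. Among all autosomal genes tested, 38.7% were called lower. *Shbg*, the androgen-binding protein gene, was at -2.15 ± 0.23 (SE, log2 fold change), *Ptgds*, for the lipocalin-type prostaglandin D synthase, -2.09 ± 0.08 (SE), and *Cst9*, for the cystatin known as testatin, -2.08 ± 0.08 (SE). The 3 higher genes were *Dmrt1* (0.86 ± 0.05, SE), *Tjp1* (0.80 ± 0.05, SE) and *Krt18* (1.17 ± 0.48, SE), named because they are the exceptions and after their values were seen. *Dmrt1* is also expressed in spermatogonia and *Tjp1* in many cells. Genes of this list that were called lower can have other sources as well. The cell source of each transcript was not measured, in either direction. *Krt18* had only 1 to 7 counts per library and kept its call in 7 of the 18 alternative settings that gave it a value. *Cldn5* was not called (-0.27, adjusted p = 0.163).

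X-linked Sertoli genes were set apart because the sex chromosomes of spermatocytes are silenced at this stage. *Nr0b1*, *Rhox8* and *Gata1* were called lower, with log2 fold changes of -1.25, -1.18 and -0.70. *Rhox5*, a homeobox gene of adult Sertoli cells, was listed with 0 counts in all 8 libraries and could not be tested.

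**Figure D4:**
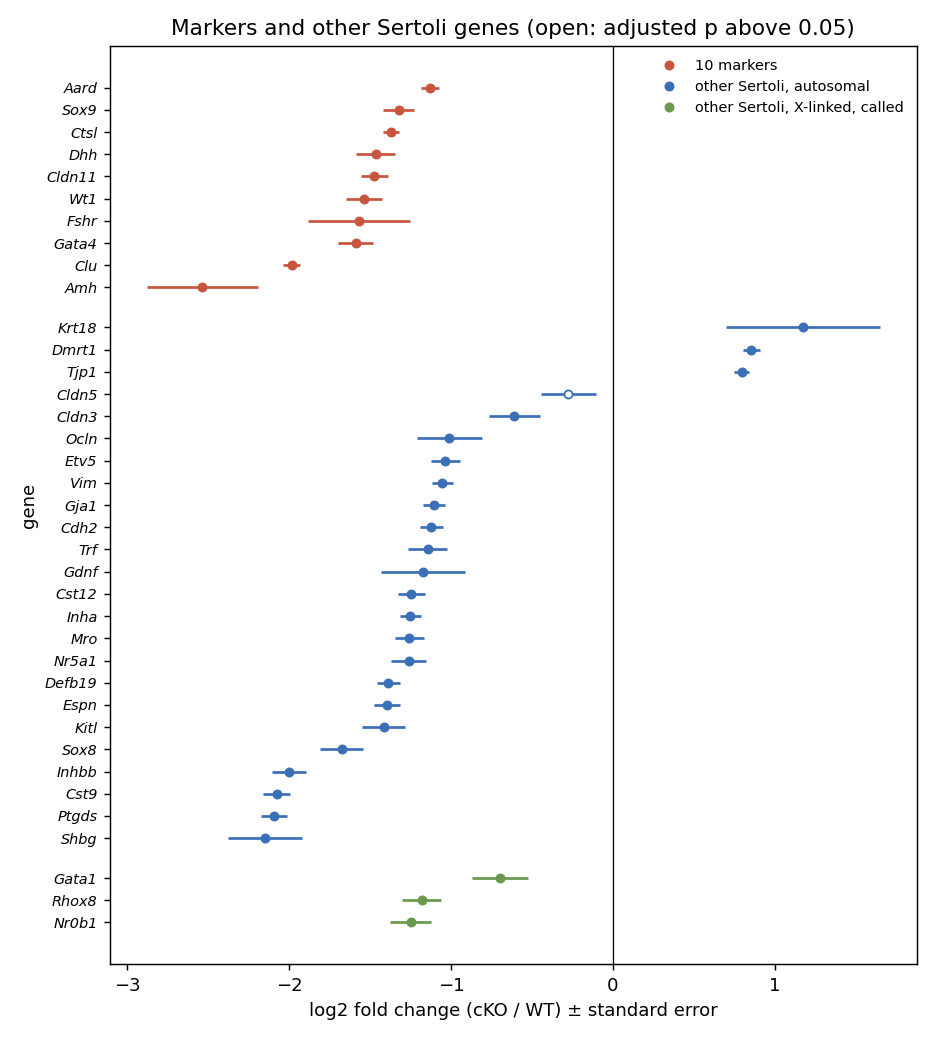
Log2 fold change (cKO over WT) with its standard error for the 10 markers (red), 24 other autosomal Sertoli genes (blue) and the 3 X-linked Sertoli genes called lower (green); open symbols did not pass an adjusted p of 0.05. All 10 markers and 20 of the 24 autosomal genes lie to the left of 0 and passed.

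Markers of other testis cells did not all fall with the Sertoli genes. Which cells of the preparation held these transcripts was not tested. Of all genes tested, 37.5% were called lower and 36.5% higher. Leydig cells, the steroid-producing cells between the tubules, had 7 of 8 genes lower and 0 higher, with a median log2 fold change of -2.92. *Insl3*, *Cyp17a1* and *Hsd3b6* had -3.65, -3.41 and -3.19. Summed Leydig TPM went from 89.2 ± 6.10 in WT to 8.78 ± 0.940 in cKO (SD, n = 4), and relative to the Sertoli sum from 0.139 to 0.0465. Genes of peritubular myoid cells were higher in 5 of 6 cases and lower in 0 (median 0.61), macrophage genes higher in 6 of 9 and lower in 1 (median 1.48), and endothelial genes higher in 4 of 7 and lower in 1 (median 0.63). Myoid genes summed to between 63.9 and 74.3 TPM in WT libraries and between 241 and 263 TPM in cKO libraries, but *Actg2* alone made up 86.6% of this sum in WT and 95.3% in cKO. The other 5 myoid genes summed to between 8.08 and 10.7 TPM in WT and between 10.9 and 12.9 TPM in cKO, a ratio of means of 1.26. Macrophage genes summed to at most 10.1 TPM in WT and at least 14.4 TPM in cKO. Some had few counts, such as *C1qa* with 6 to 12 and *C1qc* with 3 to 8 per WT library. Endothelial genes summed to between 7.76 and 9.53 TPM in WT and to more in every cKO library. *Actg2*, the smooth muscle actin gene of the myoid list, rose by 2.12, and *Adgre1*, the macrophage gene for F4/80, by 1.70.

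Germ cell lists differed from the Sertoli markers too, and their counts stand beside 36.5% higher and 37.5% lower among all genes tested. All 10 spermatid genes were higher (median 2.16), with *Catsper1*, *Spaca1* and *Tnp1* at 2.39, 2.36 and 2.23. Of 10 spermatogonial genes, 8 were higher and 1 lower, *Id4* at -2.65. Of 5 leptotene and zygotene genes, 3 were higher and 2 lower, with *Spo11* at -2.68 and *Rec8* at 2.50. Of the 8 pachytene genes, 5 were lower and 3 higher, with *Piwil1* at -3.88, *Mybl1* at -1.30 and *Sycp1* at 0.83.

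**Figure D5:**
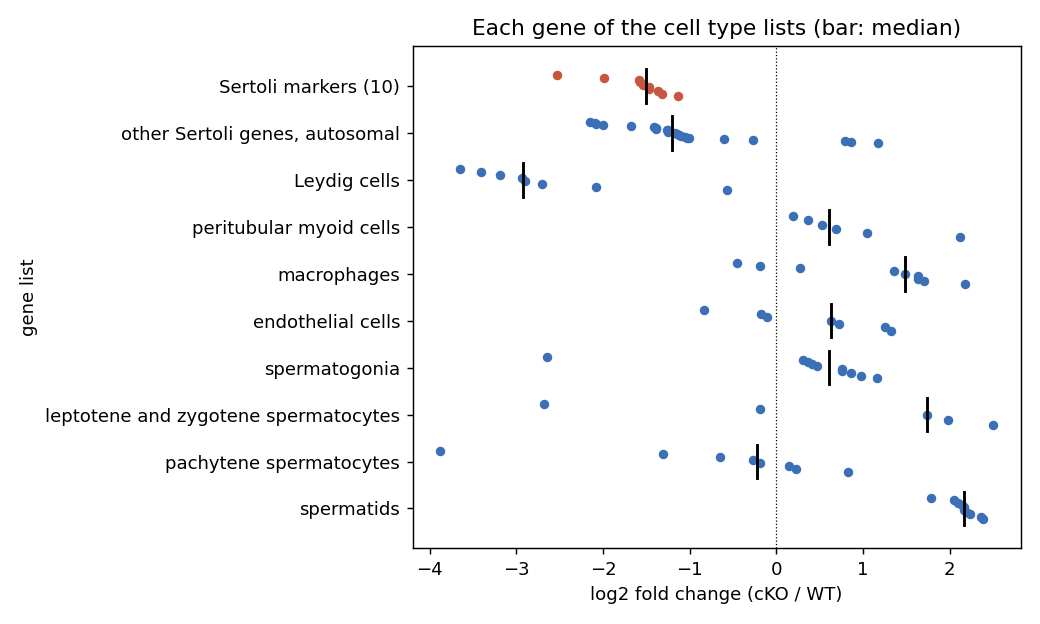
Log2 fold change (cKO over WT) of each tested gene of 10 gene lists, with the median of each list as a bar. The Sertoli markers (median -1.51) and Leydig genes (median -2.92) lie left of 0, and the spermatid genes (median 2.16) lie right of it.

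For the 3 most abundant markers, the genes with the most similar profile over the 8 libraries were sought among the 12996 genes that averaged 1 or more on the log2 CPM scale, by the root-mean-square difference of centred log2 CPM. The nearest to *Clu* were *Antkmt* and *Jmjd8* (differences of 0.0567 and 0.0579), to *Ctsl* *Ncaph2* and *Vps25* (0.0351 and 0.0360), and to *Aard* *Hmmr* and *Dixdc1* (0.0436 and 0.0440). Their log2 fold changes ran from -2.07 at *Jmjd8* to -1.11 at *Hmmr*, and none of these 6 genes was on a Sertoli list. The 8 points fall into the 2 genotypes, so the likeness is a description of these libraries.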

How the data were processed

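The members and gene lists were chosen with earlier results of these data known. Per the study's methods and processing notes, the authors ran Salmon and tximport on mm10, and deposited estimated counts and TPM per Entrez gene for 4 *Arid1a* WT and 4 *Arid1a* cKO libraries. A deposited table of the authors' DESeq2 comparison, with fold changes and p-values, was not used. Symbols and coordinates are from RefSeq GRCm38.p6, which matched 21036 of 21058 genes. Estimated counts were rounded, and genes with at least 10 counts summed over 8 libraries were tested with edgeR 4.0.16 (TMM, quasi-likelihood, genotype only; R 4.3.3), with calls at 0.05 after Benjamini-Hochberg adjustment. Each standard error (SE) is the absolute log2 fold change over the root of F. Log2 CPM used a prior count of 2. On data simulated for this comparison with 17643 genes, 95.5% of 200 genes changed 2-fold were recovered and 4.02% of calls were false.

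Genes named were the 10 members, *Arid1a*, the 3 called genes of each list with the largest change and an average log2 CPM of at least 0, direct receptors and partners, and those said to be chosen after their values were seen. Some genes that the rule takes in are not reported here. *Sox8*, *Nr5a1*, *Bmpr1a*, *Smad5*, *Cldn5*, *Rhox5*, *Prkaca*, *Wtap* and *Zfpm1* were likewise named after their values were seen. Alternatives were DESeq2 1.42.0, other scalings and filters, recovered length offsets, a threshold of 0.01, limma 3.58.1 on log2 TPM with a pseudocount of 1 or 0.1, a replicate block and each library left out. Words of 31 bases were taken from GENCODE M21. Replicates differed by more than counting noise (chi-square per degree of freedom of 1.71 to 18.0). Plots used matplotlib 3.10.9 and pandas 2.3.3 (Python 3.11.15).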

Additional observations from a re-analysis of the deposited data

Results flagged for a closer look

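In 3 of 24 groups of 4 libraries examined, 1 library stood apart from the other libraries of its genotype, with a gap to the nearest library that, as a share of the whole range, exceeded Dixon's 95% critical value, where chance gives about 1.2 of 24 such groups.

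*Amh* in WT replicate 4 was at 1.46 CPM, and the other WT libraries were at 0.903 to 0.960 CPM, a gap of 0.896 of the range. These levels rest on 18 to 32 counts. *Wt1* in cKO replicate 3 was at 6.75 CPM, and the other cKO libraries were at 8.51 to 8.72 CPM, a gap of 0.892 of the range. The summed TPM of the 10 markers in WT replicate 3 was 695, and the other WT libraries were at 622 to 629, a gap of 0.898 of the range. In each case every WT library stayed above every cKO library.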

How the results depend on the processing

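All 10 markers were called lower and 0 higher in each of the 19 alternative settings, and their median log2 fold change ran from -1.61 to -1.38. Without each library in turn, the median was -1.53 to -1.47. The largest adjusted p of any marker was 0.00163, at *Fshr* without *Arid1a* WT replicate 1. The log2 fold change of *Amh* ran from -2.73 to -0.80 and that of *Fshr* from -1.81 to -0.66, with the values nearest 0 from limma on log2(TPM + 1), a scale that shrinks low genes. The other autosomal Sertoli genes called lower numbered 20 to 21, those called higher 2 to 3, and the X-linked ones called lower 3. The ratio of the summed level was 3.15 with CPM in place of TPM and 2.90 without *Clu*, the latter chosen after seeing the data, and 3.31 to 3.44 without each library in turn.

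Scaling by library size without TMM moved the median over all genes to -0.12 and the calls to 7216 lower and 5879 higher, against 6613 and 6435. With a replicate block, 10 markers were called lower, with 6671 genes lower and 6429 higher in all. Same-numbered libraries of the 2 genotypes share only a number, with correlations of their deviations of -0.030 to 0.036. Tight junction genes called higher numbered 2 to 5 over the alternatives, peritubular myoid genes 3 to 5 and endothelial genes 3 to 4. Low counts limit *Amh* and *Fshr* most.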
